A study of Mus musculus with 4 samples.

Results

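Receptors and activation genes of mature neutrophils were followed in bulk mammary tumours of mice. The 10 genes were chosen by name, as rows of the deposited table whose symbol is Trem1, Trem3, Fpr1, Fpr2, Clec4d, Clec4e, Hcar2, Retnlg, Hdc or G0s2. All 10 were present among the 20555 genes of the table, and all 10 passed the filter on low values. The study sequenced RNA from 4 bulk tumour samples, 2 in each of 2 groups. The control group, Control-PyMT, has the genotype PyMT, a transgene for the polyoma middle T antigen that causes breast tumours in mice. MYC-PyMT carries PyMT together with S100a8-cre and Rosa26-LSL-MYC, in which Cre recombinase made from the S100a8 promoter, active mainly in neutrophils and their precursors, removes a stop cassette in front of MYC. Both groups share PyMT, and the labels give neither age nor treatment, nor whether MYC is the mouse or the human sequence. The comparison sets PyMT tumours with S100a8-cre and Rosa26-LSL-MYC against PyMT tumours. The control genotype names neither S100a8-cre nor Rosa26-LSL-MYC, so effects of MYC, of Cre and of the inserted alleles cannot be told apart. Whether replicates are separate animals is not stated in the labels, and p-values reflect only how far these particular libraries differ, which could be technical. In bulk tumour RNA, fewer cells of a type and less RNA per cell cannot be told apart.

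Neutrophils sense bacteria, dying cells and inflammatory signals through surface receptors. TREM1 and TREM3, and the C-type lectins MCL (Clec4d) and Mincle (Clec4e), carry no signalling tail of their own and work through the adaptors DAP12 (Tyrobp) and the Fc receptor gamma chain (Fcer1g). Formyl peptide receptors FPR1 and FPR2 are coupled to inhibitory G proteins and steer migration and the oxidative burst. HCAR2 is a G protein-coupled receptor for niacin and the ketone body beta-hydroxybutyrate. Retnlg encodes a small secreted resistin-like protein, Hdc the enzyme that makes histamine, and G0s2 an inhibitor of adipose triglyceride lipase.

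The receptor genes lie in clusters. On GRCm38, Trem1 (ENSMUSG00000042265.13, chr17:48232768-48246924) and Trem3 (ENSMUSG00000041754.5, chr17:48247777-48258841) are 852 bases apart on the plus strand. Fpr1 (ENSMUSG00000045551.7, chr17:17876471-17883940, minus strand) and Fpr2 (ENSMUSG00000052270.7, chr17:17887824-17893952, plus strand) are 3883 bases apart. Clec4d (ENSMUSG00000030144.4, chr6:123262111-123275265, plus strand) and Clec4e (ENSMUSG00000030142.10, chr6:123281789-123289870, minus strand) face each other across 6523 bases. No annotated gene lies between the genes of any of these pairs. RefSeq promoter windows were found for 8 of the 10 genes. The promoters of Clec4d and Clec4e are shown because their levels shared one feature, a low value in Control-PyMT replicate 2, and that of Retnlg because it was the gene with the largest rise. Each is the 250 bases before the RefSeq start (GRCm38.p6), written on the gene's own strand, at chr6:123261857-123262106 (plus), chr6:123289872-123290121 (minus) and chr16:48872358-48872607 (plus). Capitals mark matches on either strand to GAGGAA, the core of sites for the myeloid factor PU.1, and to TTNNGNAA, the pattern of C/EBP factors.
Clec4d: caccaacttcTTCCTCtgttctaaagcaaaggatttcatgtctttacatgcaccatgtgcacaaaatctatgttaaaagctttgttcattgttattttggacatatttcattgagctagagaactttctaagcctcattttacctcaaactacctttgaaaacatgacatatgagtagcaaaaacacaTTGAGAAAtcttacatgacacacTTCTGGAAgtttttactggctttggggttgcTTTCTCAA
Clec4e: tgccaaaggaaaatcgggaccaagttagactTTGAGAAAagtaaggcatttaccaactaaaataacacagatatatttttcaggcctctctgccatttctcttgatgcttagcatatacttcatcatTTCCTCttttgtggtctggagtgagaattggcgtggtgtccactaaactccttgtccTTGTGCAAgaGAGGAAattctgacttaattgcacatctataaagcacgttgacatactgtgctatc
Retnlg: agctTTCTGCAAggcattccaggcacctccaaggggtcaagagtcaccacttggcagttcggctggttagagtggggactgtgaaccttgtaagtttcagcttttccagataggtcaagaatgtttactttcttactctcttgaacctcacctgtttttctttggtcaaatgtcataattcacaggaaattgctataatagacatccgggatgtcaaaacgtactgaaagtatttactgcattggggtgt
Among the 8 promoters, 4 held GAGGAA (Trem1, Fpr2, Clec4d and Clec4e), against 23.3% of 32851 RefSeq promoter windows of the same length. TTNNGNAA was found in 6 (Trem1, Fpr1, Fpr2, Clec4d, Clec4e and Retnlg), against 36.8%. CACGTG, the E-box bound by MYC and MAX, was found in none of the 8, against 6.0%. In none of the 8 did a match to one motif overlap a match to another. These matches describe letters in the window only.

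Levels are given, replicate 1 first, in scaled counts, which are read counts divided by a size factor for each library. Libraries held 31783846 to 34190913 reads, and 1 read was worth 0.849 to 1.10 scaled counts. Changes were tested with limma on log2(scaled counts + 1) over 16725 genes, with Benjamini-Hochberg adjustment over all of them and a threshold of 0.05. Of the 10 genes, Trem3, Retnlg and G0s2 rose in MYC-PyMT, Hcar2 fell, and 6 did not pass the test. Over all genes tested, 47.9% were called, 23.3% higher and 24.6% lower, so the share of the 10 that passed was near the background. Counts from the gene lists below are to be read beside these shares. The groups did not overlap for 3 of the 10 genes with MYC-PyMT higher and for 3 with MYC-PyMT lower, where 37% and 38.7% of all genes tested did so (75.7% together). The median log2 change of the 10 was 0.45, beside -0.02 over all genes tested. The 10 genes thus differed in direction among themselves. After removal of each library's trend with transcript length, 1 of the 10 was called higher, Retnlg, and 2 lower, Hcar2 and Fpr1.

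**Figure D1:**
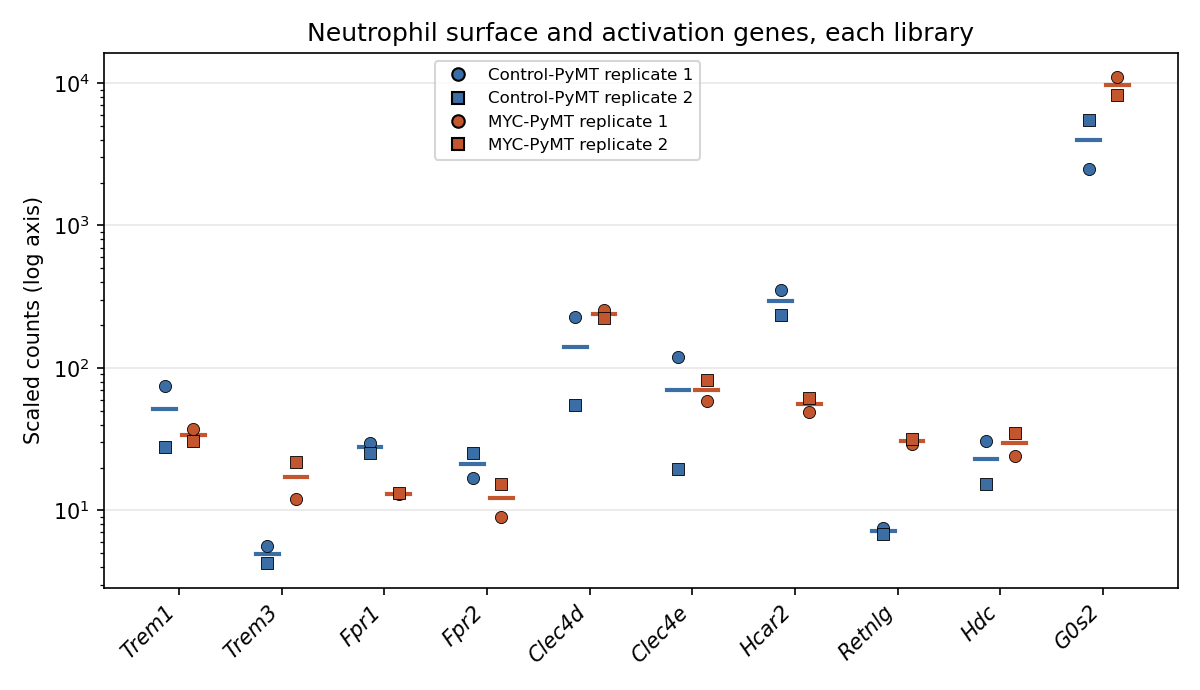
Scaled counts (log axis) of the 10 genes in each of the 4 libraries, circles for replicate 1 and squares for replicate 2, with bars at the group means. Hcar2, Fpr1, Fpr2, Retnlg, Trem3 and G0s2 separate the groups, while Trem1, Clec4d, Clec4e and Hdc spread more widely in Control-PyMT than between groups.

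Per kilobase of the longest annotated transcript, G0s2 stood far above the rest in every library, from 2860 to 12589 scaled counts per kilobase. Clec4d lay between 41.7 and 192, and Hcar2 between 25.6 and 183. No other of the 10 genes exceeded 53.7, a value reached by Retnlg in MYC-PyMT replicate 2. Clec4d and Hcar2 were close in Control-PyMT replicate 1, at 171 and 183, and far apart in both MYC-PyMT libraries, where Clec4d had 192 and 170 and Hcar2 25.6 and 31.9. At the low end Hdc lay between 3.38 and 7.78, and the range of Trem3, from 4.27 to 22.1, overlapped those of Hdc, Fpr1 and Fpr2.

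Of the TREM receptors, Trem3 passed the test and Trem1 did not, and the difference between them was not tested. Trem1, which amplifies inflammatory signals in neutrophils and monocytes, had 74.8 and 28.0 scaled counts in the control libraries, against 37.2 and 30.8 in MYC-PyMT. Control-PyMT replicate 1 stood alone, and the other 3 libraries lay close together. The log2 change of -0.43 (SE 0.49, limma adjusted p = 0.491) did not pass the test, and it was 0.26 without Control-PyMT replicate 1 and -1.12 without Control-PyMT replicate 2. Trem3, an activating receptor of mouse myeloid cells, had 5.61 and 4.25 scaled counts in the controls against 12.1 and 22 in MYC-PyMT. Both MYC-PyMT libraries were above both controls, but the values rest on 6, 5, 12 and 20 reads. Trem3 rose 3.45-fold between group means (log2 1.56, SE 0.53, limma adjusted p = 0.0357). The call was lost without Control-PyMT replicate 1 (log2 1.72 and p 0.0795 after adjustment), without Control-PyMT replicate 2 (1.39, 0.127) and with the length trend removed (1.15, 0.103). Without either MYC-PyMT library Trem3 fell under the filter and was not tested.

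Of 9 tested relatives of the receptors and of Retnlg, 1 rose and 2 fell (5 of the 10 that passed the filter under upper-quartile scaling fell, and 4 of 9 with the length trend removed). Trem2, which macrophages use to sense lipids, rose from 318 and 352 scaled counts to 858 and 1009 (log2 1.47, SE 0.22, adjusted p = 0.000515). Treml2 fell from 27.1 and 28.9 to 12.1 and 6.59 (log2 -1.54, SE 0.48, adjusted p = 0.0233). The Treml2 call ended when Control-PyMT replicate 1 (adjusted p = 0.0873), Control-PyMT replicate 2 (0.0993) or MYC-PyMT replicate 2 (0.130) was left out. Tyrobp, whose product DAP12 carries the signal of TREM1, TREM2 and TREM3, was level at 1587 and 1241 scaled counts in the controls against 1474 and 1511 in MYC-PyMT. On the log2 scale its change of 0.089 (SE 0.20, adjusted p = 0.739) had no stable sign: it was -0.016 under upper-quartile scaling, -0.088 without Control-PyMT replicate 2 and -0.56 with the length trend removed. Pglyrp1, a granule protein that binds TREM1, had 876 and 626 scaled counts in the controls against 1892 and 1304 in MYC-PyMT, and rose by 1.08 on the log2 scale (SE 0.25, adjusted p = 0.00581; 0.68 and 0.0530 with the length trend removed).

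Both formyl peptide receptors were lower in MYC-PyMT in every library, without passing the test. Fpr1, the receptor for bacterial and mitochondrial formyl peptides, had 29.9 and 25.5 scaled counts in the controls against 13.1 and 13.2 in MYC-PyMT. These values are 32, 30, 13 and 12 reads, and the groups did not overlap. On the log2 scale Fpr1 was at -1.02 (SE 0.43, limma adjusted p = 0.0756). It passed without the variance trend (adjusted p = 0.0155) and with the length trend removed (log2 -1.31, adjusted p = 0.0304). Fpr2, which also binds annexin A1, serum amyloid A and the cathelicidin peptide, had 16.8 and 25.5 scaled counts in the controls against 9.06 and 15.4 in MYC-PyMT. Only the narrow gap between 16.8 and 15.4 separated the groups. The log2 change was -0.76 (SE 0.49, adjusted p = 0.226), and it was -0.47 without Control-PyMT replicate 2 and -0.41 without MYC-PyMT replicate 1. Fpr2 shares 48 of its 1296 exonic bases with Fpr3, which lies on the same strand. Fpr3 was not analysed here.

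Ligand genes of the TREM, formyl peptide and CLEC4 receptors were taken as 1 list, of which 5 of 8 rose and none fell. The median log2 change of the ligand genes was 1.07. Saa3, an acute-phase serum amyloid, rose from 493 and 217 scaled counts to 1376 and 1419 (log2 2.09, SE 0.34, adjusted p = 0.000811). Saa2 rose from 7067 and 3184 to 18551 and 14653, and Hmgb1, an alarmin when released from dying cells, from 5930.1 and 4074 to 9668 and 10919. The other 2 that rose were Pglyrp1, a ligand of TREM1, and the cathelicidin gene Camp. Camp rests on 3 and 0 reads in the controls against 20 and 14 in MYC-PyMT (log2 3.25, SE 0.71, limma adjusted p = 0.00432). Without either MYC-PyMT library Camp fell under the filter and was not tested. Anxa1, the gene of the FPR2 ligand annexin A1, had a log2 change of -0.35 (adjusted p = 0.452), which was 0.23 without Control-PyMT replicate 1 and 0.019 without MYC-PyMT replicate 1. Saa1 and Saa2 are near-identical copies, so their reads may have been split between them.

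Of 13 genes for G protein signalling and the phagocyte oxidase downstream of formyl peptide receptors, 5 fell, none rose and 8 did not pass the test. The median was -0.58, beside -0.02 over all genes tested, of which 24.6% were called lower and 23.3% higher. Plcb2, a phospholipase C activated by G proteins, fell from 105 and 161 scaled counts to 29.2 and 33.0 (log2 -2.03, SE 0.36, adjusted p = 0.00139). Pik3cg, the phosphoinositide kinase of chemoattractant receptors, fell from 944 and 1136 to 506 and 310, and Cybb, the catalytic subunit of the oxidase, from 1868 and 1491 to 740 and 715. All 3 genes are also expressed in macrophages and other leukocytes. The pan-leukocyte gene Ptprc fell as well, from 1334 and 1209.5 to 538 and 656 (log2 -1.09, SE 0.21, adjusted p = 0.00203). Of 6 pan-leukocyte genes, however, only Ptprc and Cd52 fell and 4 did not pass, with a median log2 change of -0.19. Lcp1 (log2 0.37), Laptm5 (0.33) and Cd53 (0.086) were among the latter, and Laptm5 was at -0.31 without Control-PyMT replicate 1 and at 0.97 (adjusted p = 0.0211) without Control-PyMT replicate 2. Cd53 was at -0.099 without Control-PyMT replicate 2, -0.089 without MYC-PyMT replicate 2, -0.088 with the length trend removed and -0.019 under upper-quartile scaling.

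The C-type lectin genes Clec4d and Clec4e had their lowest value in Control-PyMT replicate 2. Clec4d had 226 and 55.2 scaled counts in the controls against 254 and 225 in MYC-PyMT. Clec4e had 120 and 19.5 in the controls against 58.4 and 82.4 in MYC-PyMT. Control-PyMT replicate 1 was within the range of the MYC-PyMT libraries for Clec4d and above it for Clec4e, so the groups overlapped for both. The log2 change was 1.09 for Clec4d (SE 0.53, limma adjusted p = 0.118) and 0.50 for Clec4e (SE 0.68, adjusted p = 0.569). For Clec4d it was 2.09 without Control-PyMT replicate 1 (adjusted p = 0.00470) and 0.078 without Control-PyMT replicate 2. For Clec4e the same omissions gave 1.78 (adjusted p = 0.0241) and -0.78 (0.164), a change of sign. The difference of either gene between groups thus depended on which control library was kept. Clec4d also passed without MYC-PyMT replicate 2 (log2 1.17, adjusted p = 0.0242), and Clec4e was at 0.25 there.

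**Figure D2:**
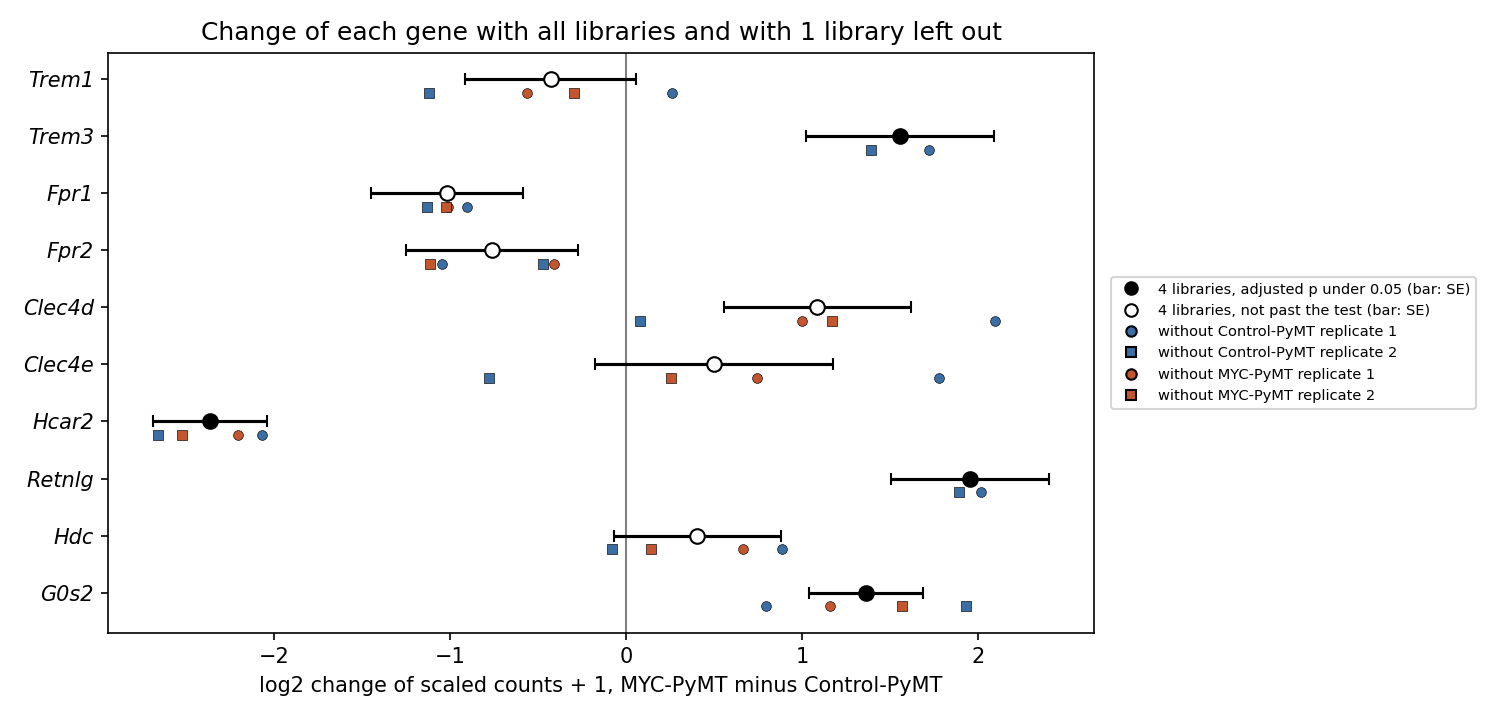
The log2 change of each of the 10 genes, MYC-PyMT minus Control-PyMT, with all 4 libraries (large circles, filled where the adjusted p was under 0.05, bars showing the SE) and with 1 library left out (small coloured symbols). Clec4d, Clec4e and Trem1 move most when a control library is left out, while Hcar2 stays between -2.66 and -2.07.

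Of the other C-type lectin genes tested, 1 passed the test. Clec4a1 fell from 199 and 200.4 scaled counts to 104 and 104 (log2 -0.94, SE 0.28, adjusted p = 0.0191), a call that ended whenever 1 library was left out (adjusted p from 0.0559 to 0.0767). Neither Clec4a2 (log2 -0.72, adjusted p = 0.0682) nor Clec4a3 (-0.76, 0.0584) passed. Clec4n, which encodes dectin-2, had 599 and 264 scaled counts in the controls against 281 and 442 in MYC-PyMT, again with a control difference in the direction seen for Clec4d and Clec4e. Its log2 change was -0.17 (adjusted p = 0.728). Clec7a, the gene for dectin-1, had a log2 change of -0.50 (adjusted p = 0.117), and passed without Control-PyMT replicate 2 (log2 -0.82, adjusted p = 0.0215).

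Of 15 genes for signalling from TREM and CLEC4 receptors, 5 fell and 1 rose, where 24.6% and 23.3% of all genes tested did so. The median log2 change was -0.48. Ptpn6, the phosphatase SHP-1, fell from 1447 and 1455 to 607 and 606. Plcg2 fell from 2496 and 2546 to 1629 and 1431, a call lost without MYC-PyMT replicate 2 (log2 -0.63, adjusted p = 0.119). The rise was that of Card9, which links Syk to NF-kappaB downstream of Mincle, from 85.1 and 114 to 198 and 226, a call lost without Control-PyMT replicate 1 (adjusted p = 0.0570) or MYC-PyMT replicate 2 (0.0682). Fcer1g, the adaptor of Mincle, had 1272 and 1318 scaled counts in the controls against 1057 and 1210 in MYC-PyMT (log2 -0.20, SE 0.19, adjusted p = 0.428), and fell with the length trend removed (log2 -0.79, adjusted p = 0.00814). Under upper-quartile scaling or with the length trend removed, 8 of the 15 were called lower, and 3 without MYC-PyMT replicate 2.

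Hcar2 (ENSMUSG00000045502.6, chr5:123863570-123865499, a single exon) had the largest change of the 10. It had 354 and 234 scaled counts in the controls against 49.3 and 61.5 in MYC-PyMT. Each control library was above each MYC-PyMT library, and the mean fell 5.30-fold, from 294 ± 84.2 to 55.4 ± 8.65 (SD, n = 2 each). This is a log2 change of -2.36 (SE 0.32, limma adjusted p = 0.000318), and the call was kept under every alternative run. HCAR2 is made by adipocytes, macrophages and keratinocytes as well as neutrophils. Of 8 keratinocyte genes tested, 5 fell and 2 rose, with 1 lower without Control-PyMT replicate 1 and 2 lower without Control-PyMT replicate 2, and 1 higher without either control or MYC-PyMT replicate 2. Krt10, a keratin of the upper epidermis, fell from 634 and 421 to 107 and 136 (log2 -2.09), and Krt1, its partner, from 778 and 249.7 to 4.03 and 6.59 (log2 -6.16). With either control library left out, Krt1 was among the genes under the filter and not tested, so the counts above omit it there. Sbsn rose by 2.08 on the log2 scale. Of 16 macrophage and monocyte genes, 5 fell (3 without either MYC-PyMT library) and 3 rose. The risers were Cd68, a lysosomal protein (log2 1.38, adjusted p = 0.000312), the scavenger receptor gene Msr1 (1.53, 0.00198) and the lysozyme gene Lyz2 (0.74, 0.0104, lost without either MYC-PyMT library at 0.0745 and 0.0916). Cx3cr1, a chemokine receptor gene, fell by 1.91 on the log2 scale. Csf1r, the macrophage growth factor receptor, had a log2 change of -0.63 (adjusted p = 0.0449, lost without Control-PyMT replicate 2, MYC-PyMT replicate 1 or MYC-PyMT replicate 2, with log2 -0.38, -0.76 and -0.51), and Adgre1, which encodes F4/80, one of -0.51 (adjusted p = 0.0580). The part of these cells in the fall of Hcar2 was not tested.

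Retnlg (ENSMUSG00000022651.5, chr16:48872621-48874496), abundant in mouse neutrophils and bone marrow, had 7.48 and 6.79 scaled counts in the controls against 29.2 and 31.9 in MYC-PyMT. Libraries of a group were nearly equal, at 8 and 8 reads against 29 and 29. The mean rose 4.28-fold (log2 1.95, SE 0.45, limma adjusted p = 0.00572). The log2 change was 2.01 without Control-PyMT replicate 1 and 1.89 without Control-PyMT replicate 2. With the length trend removed it was 1.30 (adjusted p = 0.0381). Retnlg passed the filter only through the MYC-PyMT libraries, where it was high. Without either of them it was under the filter and not tested, so those omissions could not check the rise. Its relatives Retn and Retnla did not rise. Retn, the resistin gene of adipocytes, had 58.0 and 171 scaled counts in the controls against 129 and 61.5 in MYC-PyMT. Retnla, a product of alternatively activated macrophages, had 90.7 and 347 in the controls against 84.5 and 58.2 in MYC-PyMT (log2 -1.33, adjusted p = 0.0659). It passed with log2 -2.29, -1.59 and -1.06 without Control-PyMT replicate 1, MYC-PyMT replicate 1 or MYC-PyMT replicate 2 (adjusted p = 0.00617, 0.00211 and 0.0460), and was at -0.37 without Control-PyMT replicate 2.

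Hdc (ENSMUSG00000027360.5, chr2:126593667-126619299) had 30.9 and 15.3 scaled counts in the controls against 24.2 and 35.2 in MYC-PyMT. The groups overlapped, and the log2 change of 0.40 (SE 0.47, limma adjusted p = 0.506) did not pass. It ranged from -0.079 without Control-PyMT replicate 2 to 0.89 without Control-PyMT replicate 1. Hdc is also the defining enzyme of mast cells and basophils. Of 7 of their 12 marker genes found in the table, 6 were tested, of which 1 fell and none rose. The summed level of the 7 was 497 and 542 scaled counts in the controls against 339 and 371 in MYC-PyMT. Most of this sum was Hpgds, at 362 and 352 in the controls against 254 and 287 in MYC-PyMT (log2 -0.40, limma adjusted p = 0.188). Cpa3, a mast cell protease, had 10.3 and 22.1 scaled counts in the controls against 10.1 and 9.89 in MYC-PyMT. The gene that fell was Gata2 (log2 -1.26, adjusted p = 0.0208), which endothelial cells also express, and the call ended without Control-PyMT replicate 1 (log2 -1.22), Control-PyMT replicate 2 (-1.31) or MYC-PyMT replicate 2 (-0.92). Of 5 tested genes that handle or sense histamine, 2 fell and 1 rose. Aoc1, the secreted diamine oxidase that degrades it, fell from 426 and 201 scaled counts to 6.04 and 5.49 (log2 -5.44, SE 0.43, adjusted p = 1.93e-05). Hrh2, a histamine receptor, fell from 14 and 14.4 to 3.02 and 2.20. With either control library left out, Aoc1 and Hrh2 had no second library above the filter and were not tested. Hnmt, which methylates histamine inside cells, had 57.0 and 68.8 scaled counts in the controls against 103 and 138 in MYC-PyMT (log2 0.92, adjusted p = 0.0426, lost when any 1 library was left out, with log2 from 0.70 to 1.13).

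G0s2 (ENSMUSG00000009633.3, chr1:193272161-193273217, minus strand) was the most abundant of the 10. It had 2491 and 5489 scaled counts in the controls against 10965 and 8261 in MYC-PyMT. The groups did not overlap, although the control libraries differed by 1.14 on the log2 scale. The mean rose 2.41-fold (log2 1.36, SE 0.33, limma adjusted p = 0.00681). Without Control-PyMT replicate 1 the log2 change was 0.79 (adjusted p = 0.0325), and with the length trend removed 0.89, which did not pass (0.0589). G0s2 lies within Lamb3, a laminin gene on the opposite strand, but shares none of its 871 exonic bases with exons of Lamb3. Lamb3 fell, from 1225 and 1238 scaled counts to 493 and 704 (log2 -1.06).

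G0s2 is strongly expressed in adipocytes as well as neutrophils. Of 9 adipocyte markers tested, 2 rose, 1 fell and 6 did not pass. Without Control-PyMT replicate 2, 5 were higher and 0 lower, 4 were lower without Control-PyMT replicate 1, and 2 were lower without MYC-PyMT replicate 1. The marker that fell was Lep, the leptin gene, from 31.8 and 52.7 scaled counts to 1.0 and 2.20 (log2 -4.05, SE 0.54, adjusted p = 0.000284). With either control library left out, Lep was under the filter and not tested, so the counts above omit it there. The summed level of the 10 adipocyte markers was 2924 and 6690 scaled counts in the controls against 11258 and 11555 in MYC-PyMT. Without Fabp4 and Lpl it was 798 and 3538 against 2160 and 1850, and the groups overlapped. Fabp4, a fatty acid carrier also found in endothelium and macrophages, rose from 451 and 1201 to 2939 and 2544 (log2 1.89, SE 0.37, adjusted p = 0.00243, and 1.19 without Control-PyMT replicate 1). Lpl, lipoprotein lipase, rose from 1676 and 1950.1 to 6160 and 7162. Adipoq, the adiponectin gene and the most specific adipocyte marker listed, had 113 and 505 in the controls against 293 and 219.8 in MYC-PyMT (log2 0.083, adjusted p = 0.916). Its change had no stable sign, at -0.99 without Control-PyMT replicate 1, 1.16 without Control-PyMT replicate 2, -0.12 without MYC-PyMT replicate 1, -0.021 under upper-quartile scaling and -0.22 with the length trend removed. Like G0s2, 6 of the 9 adipocyte markers were at least 2-fold higher in Control-PyMT replicate 2 than in replicate 1, against 4.65% of all genes tested. The part of adipocytes in the level of G0s2 was not tested. Of 8 genes of triglyceride turnover and lipid droplets, 3 rose and none fell. These were Pnpla2, Plin2, a droplet coat protein gene (log2 0.62, adjusted p = 0.0229), and Dgat1, which makes triglyceride (0.80, 0.00740). All 3 calls depended on which library was kept. Leaving out 1 library gave log2 changes of 0.47 to 0.77 for Plin2 and 0.73 to 0.88 for Dgat1. The Plin2 call was also lost without the variance trend (limma adjusted p = 0.0707) and with the length trend removed (log2 0.48, adjusted p = 0.0643). Pnpla2, the lipase that G0S2 inhibits, rose from 1663 and 3099 to 4125 and 3764 (log2 0.80, adjusted p = 0.0341), a call lost on leaving out Control-PyMT replicate 1 (log2 0.35, adjusted p = 0.147) or MYC-PyMT replicate 1 (0.73, 0.0588). Without Control-PyMT replicate 2 the log2 change of Pnpla2 was 1.24. Its call was also lost under upper-quartile scaling (limma adjusted p = 0.06315) and without the variance trend (0.1145).

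**Figure D3:**
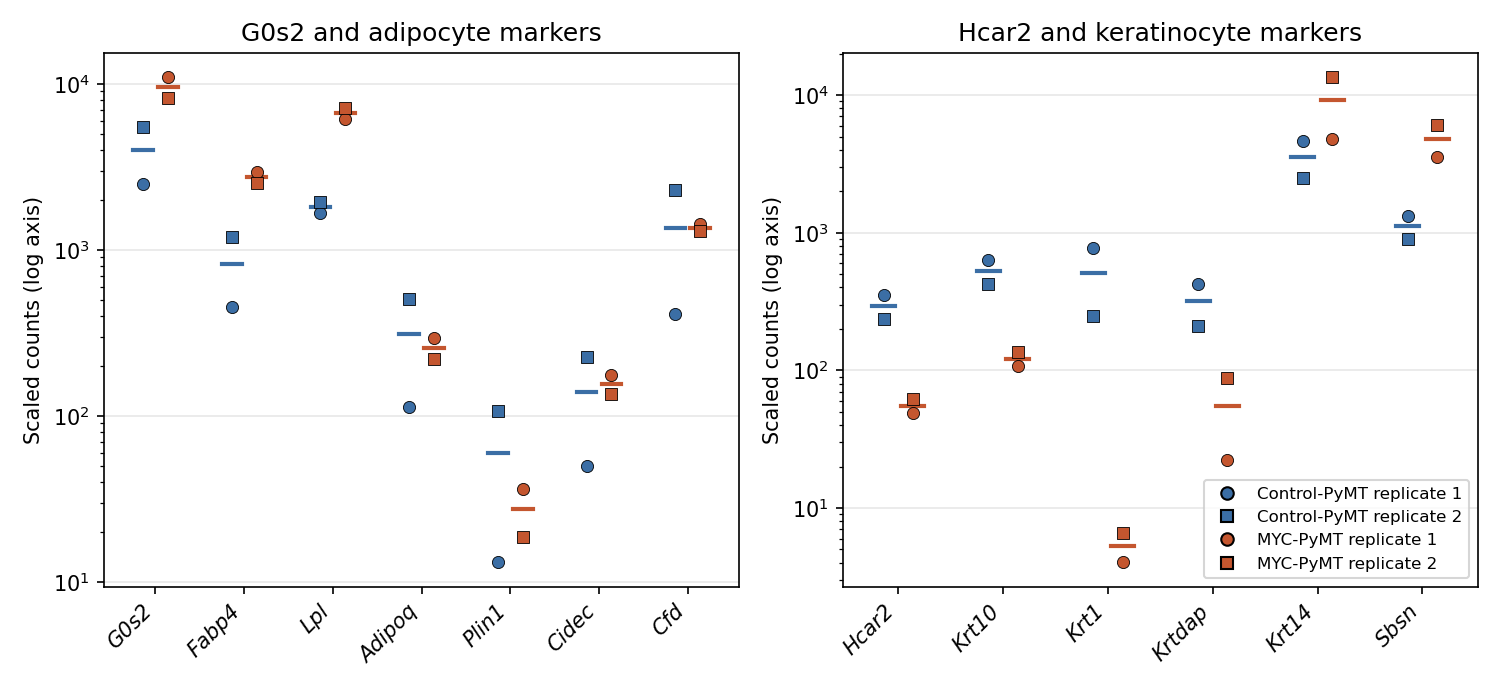
Scaled counts (log axis) by library, circles for replicate 1, squares for replicate 2 and bars for group means, of G0s2 beside 6 adipocyte markers and of Hcar2 beside 5 keratinocyte markers. G0s2 and Fabp4 share a low Control-PyMT replicate 1 and high MYC-PyMT libraries. Adipoq, Plin1, Cidec and Cfd are also lower in Control-PyMT replicate 1 than in replicate 2, but overlap between groups. Hcar2 and Krt10 fall together, while Krt14 and Sbsn are higher in MYC-PyMT.

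The label was checked against other neutrophil genes. Of 17 neutrophil markers tested, 5 rose and 3 fell, a share near that of all genes tested (23.3% called higher and 24.6% lower). Another 9 did not pass, and the median log2 change of the 17 was -0.27. The calls were 3 higher without MYC-PyMT replicate 2 or with a filter of 50, and 1 lower without Control-PyMT replicate 1 or MYC-PyMT replicate 1. Csf3r and Cxcr2, the receptors for G-CSF and for CXC chemokines that define mature neutrophils, were detected in all 4 libraries. Csf3r had 161 and 149 scaled counts in the controls against 141 and 103 in MYC-PyMT, and Cxcr2 had 87.0 and 30.6 in the controls against 43.3 and 40.7 in MYC-PyMT. Neither passed the test (log2 -0.36 and -0.30, adjusted p = 0.346 and 0.642), and Cxcr2 was at 0.44 without Control-PyMT replicate 1 and -1.03 without Control-PyMT replicate 2. Padi4, an enzyme of neutrophil extracellular traps, rose from 321 and 261 to 781 and 987 (log2 1.60), Wfdc21 from 15 and 30.6 to 116 and 127, and Stfa2l1 from 9.35 and 5.95 to 40.3 and 45.1. Stfa2l1 passed the filter only through the MYC-PyMT libraries. Without either of them, or with a filter of 50, it was among the genes not tested, so the counts above omit it there. The markers that fell were the integrin gene Itgam (log2 -0.84, adjusted p = 0.0229, lost whenever 1 library was left out, at 0.0635 to 0.127), Ccrl2 (-1.47, 0.00226) and Slfn4 (-1.40, 0.0150). The Slfn4 call was lost without Control-PyMT replicate 1 (log2 -0.94, adjusted p = 0.146) or MYC-PyMT replicate 1 (-0.92, 0.0533). S100a9 rose by 1.58 on the log2 scale (adjusted p = 0.00925), and by 0.85 without Control-PyMT replicate 2, but did not pass without the variance trend (adjusted p = 0.0536) or with the length trend removed (log2 0.86, adjusted p = 0.0788). Of 6 granule genes tested, 4 rose and 2 fell. Ngp rose from 3.74 and 4.25 to 81.5 and 89.0, and Prtn3 from 165 and 206 to 1106 and 1685. Ngp passed the filter only through the MYC-PyMT libraries, where it was high, and was not tested without either of them. Ltf fell by 1.94 on the log2 scale, from 31535 and 20550 to 7265 and 6018. Lcn2 fell by 0.87, from 116104 and 98675 to 59148 and 58212, a call lost without either MYC-PyMT library. Ltf and Lcn2 thus stood far above Ngp and Prtn3 in level, and which cells supplied any of these genes was not tested. Ly6g was not analysed here.

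Set against the mean log2 level of the 17 neutrophil markers in the same library, the 10 genes spread widely. On that relative scale the MYC-PyMT minus Control-PyMT difference was 1.70 for Retnlg, 1.31 for Trem3, 1.11 for G0s2 and 0.83 for Clec4d. It was 0.25 for Clec4e, 0.15 for Hdc, -0.68 for Trem1, -1.01 for Fpr2, -1.27 for Fpr1 and -2.62 for Hcar2. The marker mean itself differed by 0.25 between groups. Against Ptprc, the difference for Fpr1 was 0.077 and for Fpr2 0.33. These values hold for Ptprc as the reference, whereas 4 of the 6 pan-leukocyte genes did not pass the test. Against Ptprc, Hcar2 remained lower, at -1.27, and Retnlg was higher by 3.05. These ratios within a library show unequal change and were not tested.

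Several of the 10 genes differed between the control libraries. Control-PyMT replicate 1 exceeded replicate 2 at least 2-fold for 3 of the 10, Clec4e (2.56 on the log2 scale), Clec4d (2.02) and Trem1 (1.39). The same held for 5 of 17 neutrophil markers, for 3 of 8 keratinocyte markers and for 2.42% of all genes tested. It also held for Cxcl5 (2.54), Cxcl1 (1.57), Saa1 (1.46), Saa3 (1.18), Saa2 (1.15) and Il1b (1.10), so the difference was not limited to neutrophil genes. S100a8, the gene whose promoter drives Cre here, had 2338 and 639 scaled counts in the controls against 1564 and 2524 in MYC-PyMT. On the log2 scale its change was 0.70 (adjusted p = 0.260), 1.64 without Control-PyMT replicate 1 (adjusted p = 0.00975), -0.23 without Control-PyMT replicate 2, 1.05 without MYC-PyMT replicate 1 (0.00545) and 0.36 without MYC-PyMT replicate 2. With the length trend removed it was -0.036. Between the MYC-PyMT libraries none of the 10 genes and none of the 17 markers differed 2-fold. The labels give no batch, and RNA integrity numbers of 3.3 to 9.6 are not tied to samples, so their part in the control difference was not tested.

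**Figure D4:**
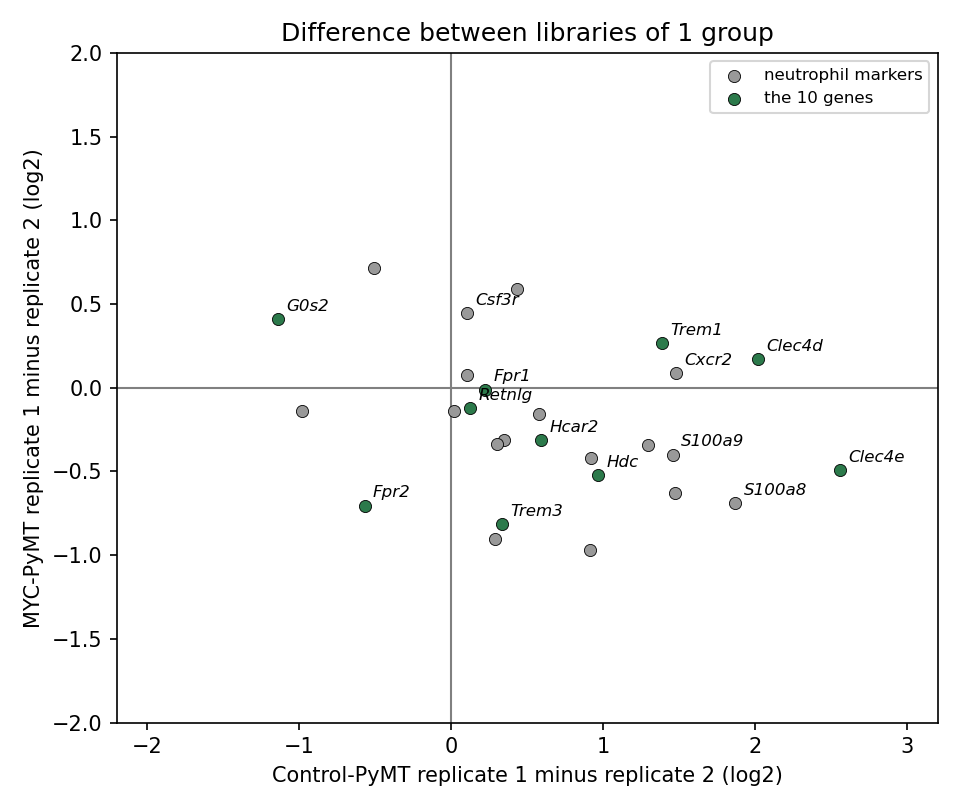
Log2 difference between the replicates of Control-PyMT (horizontal axis) and of MYC-PyMT (vertical axis) for the 10 genes and the 17 neutrophil markers. Clec4e, Clec4d, Trem1, S100a8, S100a9 and Cxcr2 lie to the right, higher in Control-PyMT replicate 1, while G0s2 lies at the left and every point stays within 1 on the vertical axis.

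Likeness of pattern was described by the Euclidean distance between log2 profiles over the 4 libraries, each centred on its mean, among 142 listed genes tested. The gene nearest to Trem1 was Cxcr2 (distance 0.20), and the gene nearest to Clec4e was S100a8 (0.54). Trem3 was nearest to Padi4 (0.34) and Clec4d to Saa1 (0.49). Fpr1 was nearest to Lcn2 (0.15), Fpr2 to the monocyte receptor gene Ccr2 (0.30) and Hdc to the oxidase subunit gene Cyba (0.28). Hcar2 was nearest to Krt10 (0.28), G0s2 to Fabp4 (0.58) and Retnlg to Lpl (0.26).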

How the data were processed

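Poly(A)-selected libraries were made with a strand-marking TruSeq kit from 500 ng of total RNA and 8 PCR cycles, per the labels' protocols. Per the submitters' processing notes, HISAT2 and DESeq2 were used with mm10 (GRCm38.p5). How reads were counted, with which annotation and strand setting, is not given in the sources used here. Near-identical or antisense genes may therefore share reads. The deposited values are a signal, counts scaled by the authors and not divided by length. In all 4 libraries 100% of values were whole multiples of what 1 read is worth, within 0.001 reads. GENCODE mouse release 21 held 20463 of the 20555 IDs.

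Genes with at least 10 scaled counts in at least 2 libraries were tested with limma 3.58.1 (R 4.3.3), two-sided, with a variance trend, on log2(value + 1), which understates changes of low genes. Fold changes in words are ratios of group means. On simulated data, 18% of 1.5-fold, 76% of 2-fold and 96% of 4-fold changes were recovered among 16584 genes. The simulation changed 50 genes at each fold and gave every gene the same dispersion. These shares therefore do not carry over to genes whose replicates differ widely. The alternatives were other pseudocounts, filters, scalings and thresholds, no trend, a replicate block, each library left out and removal of the trend with transcript length (lowess, span 0.3). Count models were not run.

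The 10 genes and the 16 lists were chosen with earlier results of these data known. Genes were named as all 10 members, 9 defining markers, family relatives past the filter, the 3 smallest p of each other list and the nearest gene to each member. Others named (Tyrobp, Fcer1g, Pglyrp1, Card9, Camp, Lamb3, Plin1, Cidec, Cfd, Krt14, Cxcl1, Cxcl2, Osm, Tnf, Csf3, Tnfaip3, Nfkbia, Anxa1, Itgam, Ccrl2, Slfn4, Msr1, Lyz2, Lcp1, Laptm5 and Cd53) were chosen after their values were seen. Of the 178 genes on the lists, those without a row were not analysed here. For 2 genes of these lists the values are not reported here.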

Additional observations from a re-analysis of the deposited data

How the results depend on the processing

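The number of genes called higher was 2566 to 3662 when 1 library was left out, lower 2753 to 3431 and in either direction 5824 to 6556. Upper-quartile scaling moved the median log2 change of all genes to -0.12, and changes under it are relative to that shift. Of the 10 genes, 1 to 4 were called higher when a library was left out, with 8 tested where a MYC-PyMT library was removed. With a filter of 50, where 4 of the 10 were tested, 1 was called higher. With the length trend removed 1 was higher and 2 lower. Without the variance trend, or at an adjusted p under 0.10 (0.0756 for Fpr1), 2 were lower. Of the listed genes, 18 to 29 were called higher with a library left out. Leaving out a library gave log2 changes of -1.12 to 0.26 for Trem1, 1.39 to 1.72 for Trem3, -1.13 to -0.91 for Fpr1, -1.11 to -0.41 for Fpr2, 0.078 to 2.09 for Clec4d, -0.78 to 1.78 for Clec4e, -2.66 to -2.07 for Hcar2, 1.89 to 2.01 for Retnlg, -0.079 to 0.89 for Hdc and 0.79 to 1.93 for G0s2. Removing the length trend gave 1.15 for Trem3, -1.31 for Fpr1 and 0.89 for G0s2, and without the variance trend Fpr1, at -1.02, passed; the cause was not tested. Signs also turned without Control-PyMT replicate 1 for Cxcr2 (0.44, lowest -1.03), Adipoq (-0.99, highest 1.16), Laptm5 (-0.31, highest 0.97), Anxa1 (0.23, lowest -0.93), Clec4n (0.41), Cidec (-0.56, highest 1.61) and Cfd (-0.76), without Control-PyMT replicate 2 for S100a8 (-0.23, highest 1.64), Tyrobp (-0.088, highest 0.27), Retn (0.61, lowest -0.93), Cd53 (-0.099, highest 0.27) and Plin1 (0.94, lowest -2.0), without MYC-PyMT replicate 1 for Adipoq (-0.12), Anxa1 (0.019) and Clec4n (0.15), without MYC-PyMT replicate 2 for Retn (0.37) and Cd53 (-0.089), under upper-quartile scaling for Adipoq (-0.021), Cd53 (-0.019) and Tyrobp (-0.016), and with the length trend removed for S100a8 (-0.036), Adipoq (-0.22), Cyba (-0.11), Cd53 (-0.088) and Tyrobp (-0.56). Among the 10 genes, the replicate block made Clec4d pass (log2 1.09, adjusted p = 0.00828) and changed no other call. Deviations of same-numbered libraries correlated at -0.09 across genes. With 2 libraries per group this value cannot show whether same-numbered libraries were paired, which the labels do not state. The planned count-model tests were not run. At 5 to 32 reads, as for Trem3, Retnlg and Fpr1, counting error limits what can be detected.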

Other observations

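Cytokine genes that call or activate neutrophils moved in both directions in these tumours, 3 of 8 tested lower and 2 higher. Among all genes tested, 24.6% were called lower and 23.3% higher. Of the other 3 inflammatory genes of the list, Ptgs2 and Tnfaip3 fell and Nfkbia did not pass (log2 -0.42, adjusted p = 0.0925). Il1b, a main inflammatory cytokine of myeloid cells, fell from 708 and 330.4 scaled counts in the controls to 72.5 and 81.3 in MYC-PyMT (log2 -2.64, SE 0.36, limma adjusted p = 0.000325). Ptgs2, the inducible cyclooxygenase, fell from 761 and 355 to 80.5 and 124, and Tnf from 360.1 and 225 to 61.4 and 78.0. Cxcl5, a ligand of CXCR2 made mainly by epithelium, fell from 729 and 125 to 10.1 and 14.3 (log2 -4.54). The genes that rose were Cxcl2, from 39.3 and 22.1 to 65.4 and 104, and Osm, from 15 and 10.2 to 27.2 and 31.9. The call of Cxcl2 was lost without Control-PyMT replicate 2 (adjusted p = 0.108) or MYC-PyMT replicate 2 (0.0971), and that of Osm whenever 1 library was left out (0.0635 to 0.183). Csf3, the gene for G-CSF, had 58.0 and 39.1 scaled counts in the controls against 56.4 and 78.0 in MYC-PyMT, and did not pass the test (adjusted p = 0.329).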
